A study of Oryza sativa Indica Group with 12 samples.

Results

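Aquaporins, the channel proteins that let water and some small solutes cross plant membranes, were followed in seedlings of the indica rice cultivar IR64 under potassium starvation and resupply. They were taken as every probe set of the Affymetrix rice array that the array annotation pairs with a single gene and whose RefSeq symbol or synonym is PIP, TIP, NIP or SIP followed by a digit, or is aquaporin. This naming rule took 38 probe sets, and 7 of them, of 5 genes, belong to other proteins that share such a synonym (a kinase, heat stress factors, a starch protein and an anther bHLH factor) and were set aside. The other 31 probe sets of 25 genes are described here, out of 57258 probe sets tested. RefSeq names 29 rice aquaporin genes, and the other 4 (NIP1-2, NIP3-3, PIP2-3 and TIP5;1) have no probe set under the rule. Gene names are written in the hyphen form that RefSeq lists, so that PIP2-4 is the gene usually written with a semicolon between the digits.

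The study hybridized whole seedlings without the seed, root and shoot together, on 12 arrays, with 3 biological replicates in each of 4 groups. KR seedlings had 5 days without potassium and then 6 h of resupply with 0.409 mM K2SO4, KM seedlings had 5 days on medium with 0 mM K2SO4, and KP seedlings had 5 days on medium with 0.409 mM K2SO4. The 0h seedlings were taken on the day of transfer, after 5 days of normal growth that all groups shared. A treatment tag of the 0h arrays names the potassium-deficient medium instead, and the title and source name were followed. All values below are log2 of the deposited signal. A change is the difference of 2 group means of 3 arrays with the standard error of the limma fit, and a probe set was called when it differed by 2-fold or more with an adjusted p below 0.05. The comparisons share arrays (KP, for example, is in KM against KP, in KR against KP and in KP against 0h), so their values are not independent of one another.

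Plant aquaporins fall into subfamilies, some of them named for the membrane they are known from. The plasma membrane intrinsic proteins (PIP) pass water into and between cells, and the tonoplast intrinsic proteins (TIP) sit in the membrane of the vacuole, the store of most of a cell's potassium and water. The nodulin 26-like proteins (NIP) carry small uncharged solutes, among them silicic acid in rice, and the small basic proteins (SIP) lie in inner membranes. Potassium is a main osmotic solute of plant cells, and water follows it across both the plasma membrane and the tonoplast.

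The arrays held 13 probe sets of 10 PIP genes, 11 of 8 TIP genes, 5 of 5 NIP genes and 2 of 2 SIP genes. The array maker marks with s or x before the last letters of the identifier those probe sets whose probes can also bind transcripts of other genes, close relatives among them, and 3 s and 5 x probe sets are among the 31. The letter a marks probe sets that bind several transcripts of 1 gene. In 8 of the 31 the value stayed under 4 in all 12 arrays, near the arrays' medians of 2.70 to 2.83, and these are called near background here. They are NIP3-1, NIP4-1, PIP2-8, TIP3-1, TIP3-2 (TIP3 proteins are best known from seeds), TIP4-2 and a further probe set each of PIP2-2 and TIP4-1. The other 23 reached 4 or more in some array.

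The medians of the KR arrays, 2.79 to 2.83, lay above those of the other 9 arrays, 2.70 to 2.74. Green shoot genes were high in all groups, as in RCA, the activase of Rubisco, whose 4 probe sets ran between 9.31 and 13.84. Of 8 root marker genes Lsi2, the root silicon exporter, reached 10.05, while QHB, NRT2.2 and NRT2.3 were near background in every array. KP replicate 3 held the highest of the 12 values in 10 of the 31 aquaporin probe sets and in 3.85% of all probe sets.

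Under potassium starvation 5 aquaporin genes were lower and none was higher. In KM against KP, 6 of the 31 probe sets fell and the other 25 were not called, against 2.54% called in either direction and 1.59% called lower over all probe sets. Among the 22198 probe sets with a group mean of at least 4, 6.38% were called. The 6 probe sets belong to 3 PIP genes (PIP1-3, PIP2-4 and PIP2-5) and 2 TIP genes (TIP1-2 and TIP2-1), and none belongs to a NIP or SIP gene. The median change of the 31 was -0.22, with 25 negative, against a median of -0.0008 and 53.0% negative over all probe sets. By the unpaired t-test that the study's methods name, none of the 6 passed (adjusted p from 0.0616 to 0.164), although 16 of the 31 were at an unadjusted p under 0.05 by it, against 16.8% of all probe sets.

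PIP2-4, a plasma membrane water channel, had 7.88, 7.89 and 7.75 in KR seedlings, 7.35, 6.74 and 6.46 in KM seedlings, 8.44, 8.95 and 9.29 in KP seedlings and 7.81, 7.76 and 7.52 in 0h seedlings. Every KM array was below every other array, and every KP array was above. The fall in KM against KP was -2.04 ± 0.25, or 4.13-fold (adjusted p = 0.00113).

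PIP2-5, of the same plasma membrane class, had 7.53, 8.13 and 7.65 in KR seedlings, 8.22, 7.68 and 7.68 in KM seedlings, 8.79, 9.51 and 9.77 in KP seedlings and 7.36, 7.38 and 7.20 in 0h seedlings. The 3 KP arrays stood above all others, and KR and KM overlapped. Its change in KM against KP was -1.50 ± 0.26 (adjusted p = 0.00713), a call lost when only the arrays of these 2 groups were fitted (adjusted p = 0.0595).

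PIP1-3, also known as RWC3, belongs to the PIP1 class, whose members are known to reach the plasma membrane together with PIP2 proteins. It had 10.58, 10.66 and 10.58 in KR seedlings, 10.89, 10.26 and 10.19 in KM seedlings, 11.55, 11.72 and 12.13 in KP seedlings and 10.66, 10.64 and 10.70 in 0h seedlings. The KP arrays were again apart, and the KR and 0h arrays lay inside the range of the KM arrays. Its change in KM against KP was -1.35 ± 0.19 (adjusted p = 0.00234).

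TIP2-1, a tonoplast channel whose class also passes ammonia in Arabidopsis, had the largest fall of the 31 in KM against KP. Its first probe set had 5.64, 6.23 and 5.95 in KR seedlings, 5.91, 5.06 and 4.92 in KM seedlings, 7.54, 7.90 and 8.35 in KP seedlings and 4.94, 4.43 and 4.80 in 0h seedlings. The s probe set of the gene had 10.87, 11.25 and 11.24 in KR seedlings, 10.80, 10.15 and 10.17 in KM seedlings, 11.95, 12.42 and 12.77 in KP seedlings and 11.11, 11.15 and 10.96 in 0h seedlings. In both, the KP arrays lay above all 9 others, and in the s probe set the KM arrays lay below all others. The changes in KM against KP were -2.63 ± 0.30 (6.21-fold, adjusted p = 0.000764) and -2.01 ± 0.23 (4.03-fold, adjusted p = 0.00083).

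TIP1-2, a second vacuolar channel, had 7.66, 7.99 and 7.46 in KR seedlings, 7.87, 6.999 and 7.04 in KM seedlings, 8.46, 8.99 and 9.66 in KP seedlings and 6.56, 6.48 and 6.06 in 0h seedlings. KM replicate 1 and KP replicate 1 were the closest between those groups, which did not overlap. The change was -1.73 ± 0.33 (adjusted p = 0.011), and this call too was lost when only the KM and KP arrays were fitted (adjusted p = 0.0799).

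**Figure D1:**
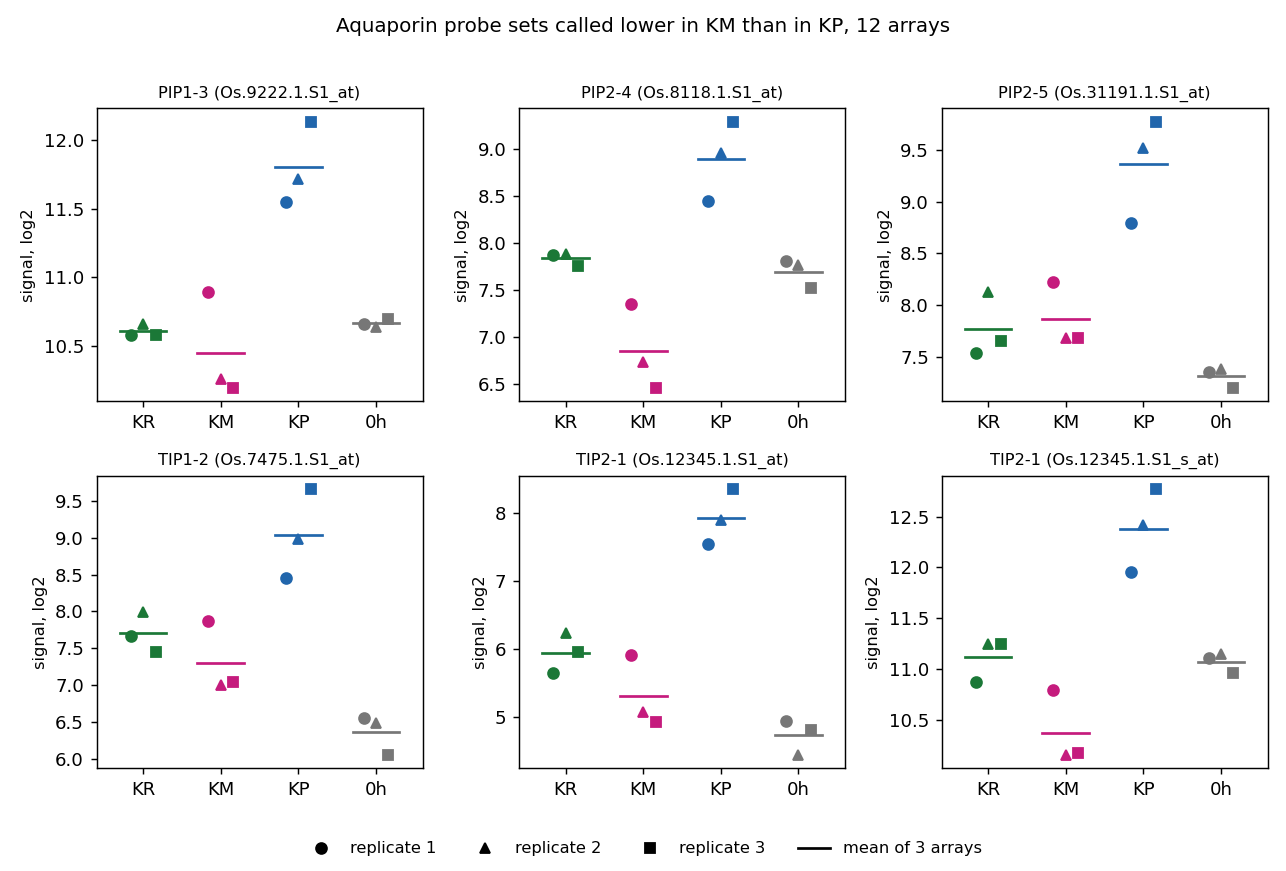
Log2 signal (vertical axis, a scale of its own in each panel) of the 6 aquaporin probe sets called lower in KM than in KP, in KR, KM, KP and 0h seedlings. Each point is 1 array and each line the mean of 3, and in all 6 panels KP replicate 3 (square) is the highest of the 12 arrays, while the KM arrays are below all others in PIP2-4 and in the s probe set of TIP2-1.

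Replicates of a group spread in the same way over these genes. KP replicate 3 was the highest KP array in all 6 of the probe sets, and KM replicate 1 was the highest KM array in PIP1-3, PIP2-4, PIP2-5, TIP1-2 and both TIP2-1 probe sets. Leaving out any single array ended none of these 6 calls. The root gene Lsi2 was also highest in KP replicate 3, with 10.05 in KP replicate 3 against 8.84 and 8.63 in the other two. Among the other root markers, KP replicate 3 was the highest KP array in AMT1-2, NRT2.3 and the strongest CASP1 probe set. It was not the highest in SCR1, SHR1, QHB and NRT2.2.

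PIP2-4, PIP2-5 and PIP2-1 are near neighbours on chromosome 7 in the RefSeq gene table of Oryza sativa Japonica (assembly ASM3414082v1), with 1 annotated pseudogene between PIP2-4 and PIP2-5 and no annotated gene between PIP2-5 and PIP2-1. Whether probes of one also bind transcripts of another was not tested. PIP2-1 was not called in any comparison and is given below by probe set.

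The aquaporins not called in KM against KP had changes from -0.84 to 0.98. PIP2-2 (s probe set) had -0.84 ± 0.17 (adjusted p = 0.0148) and NIP2-2 had -0.59 ± 0.16 (adjusted p = 0.0437), both past the p threshold and under 2-fold. PIP2-7 had 0.46 ± 0.20 (adjusted p = 0.249), one of 6 positive changes among the 31. The tonoplast channel TIP1-1 had -0.23 ± 0.09 and -0.20 ± 0.20 in its 2 probe sets (adjusted p = 0.172 and 0.871). SIP1-1 and SIP2-1 had 0.04 ± 0.07 and -0.09 ± 0.08.

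Some markers of root, green tissue and time of day were also called in KM against KP. Of the 8 root marker genes 1 was called lower, CASP1, an endodermal barrier protein, against 1.59% called lower over all probe sets. CASP1 had -1.12 ± 0.22 in 1 probe set (adjusted p = 0.0123), with -0.18 and -0.15 in its other probe sets, not called. A negative change was seen in 7 of the 8, against 53.0% of all probe sets. Among the 7, QHB and NRT2.2 were near background with -0.003 each. The summed signal of the 8 genes on log2 ran from 9.02 to 9.48 in KR, from 8.53 to 8.98 in KM, from 9.03 to 10.25 in KP and from 7.35 to 7.44 in 0h arrays. Lsi2 carries most of that sum outside 0h, and without it the other 7 genes summed to 6.90 to 6.95 in KR, 6.81 to 7.06 in KM, 6.97 to 7.27 in KP and 6.84 to 7.08 in 0h arrays. Lsi2 itself had -0.96 ± 0.35 (adjusted p = 0.144). In whole seedlings, fewer cells of a type and less RNA per cell cannot be told apart.

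Of the 13 green probe sets of 5 genes, 5 fell in KM against KP, the 4 of RCA and 1 of CAB2R, a light-harvesting protein. Over all probe sets 1.59% were called lower. With 1 probe set per gene 1 of 5 was called, and 2 had positive changes, GLO1 (0.27 ± 0.11), an enzyme of photorespiration, and rbcS (0.16 ± 0.08), the small subunit of Rubisco. The summed signal of the 5 green genes, 1 probe set each, ran from 15.72 to 15.74 in KR, was 15.20 in each KM array, and ran from 15.60 to 15.76 in KP and from 15.15 to 15.26 in 0h arrays. Among the 7 clock genes, CCA1, a morning gene, had 6.28, 6.42 and 5.98 in KM seedlings, against 10.89, 11.12 and 10.80 in KP seedlings (-4.71 ± 0.18, adjusted p = 1.59e-06). PRR95 was lower by call as well (-1.09 ± 0.05) and PCL1, an evening gene, was higher (1.08 ± 0.09). The hours of harvest are not given in the sources used here, and the part of root share, green tissue and time of day in the aquaporin values was not tested.

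**Figure D2:**
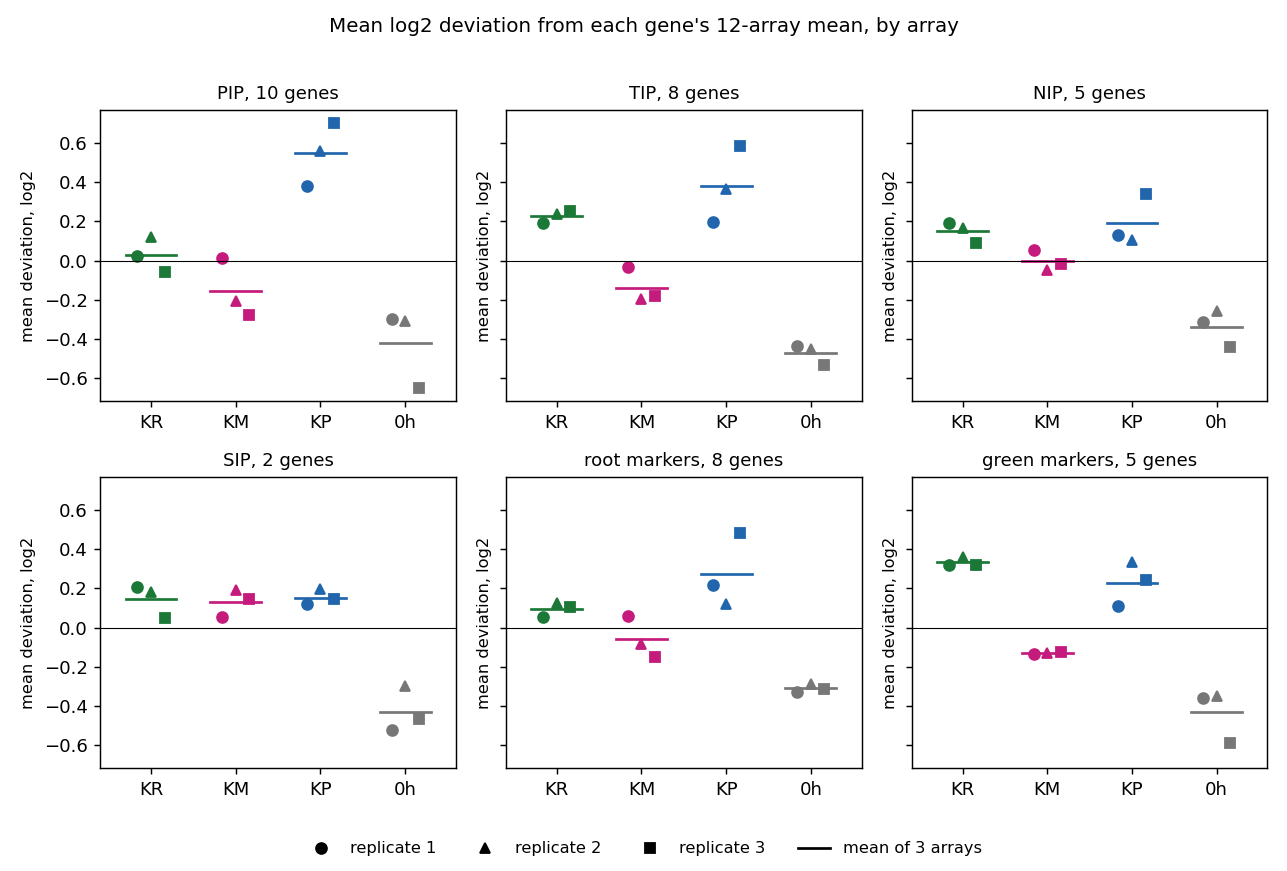
Mean log2 deviation of the genes of each subfamily, and of the root and green marker genes, from each gene's own mean over the 12 arrays (vertical axis, shared), by array and group, with lines at the means of 3 arrays. PIP genes average -0.16 in KM and 0.55 in KP, and TIP genes -0.14 in KM and 0.38 in KP. Root markers average -0.06 in KM and 0.27 in KP, and green markers -0.13 in KM and 0.23 in KP. NIP genes average -0.004 in KM and 0.19 in KP, and SIP genes 0.13 in KM and 0.15 in KP.

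After 6 h of resupply no aquaporin passed the call in KR against KM. With limma 0 of 31 were called, against 3.81% of all probe sets in either direction and 9.63% of those with a group mean of at least 4, and 16 of the 31 were at an unadjusted p under 0.05, near the 54.2% of all probe sets that were. The methods' t-test also called 0. Without the fold threshold 15 passed, 13 higher and 2 lower, close to the 45.6% of all probe sets that passed so. Of the 13, NIP3-1, NIP4-1, TIP3-2 and a probe set of PIP2-2 were near background, where the KR arrays had the higher medians. The median change of the 31 was 0.17, against 0.04 over all probe sets.

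The changes nearest to the call were in 3 genes. NIP2-1 had a change of 0.99 ± 0.19 in KR against KM (adjusted p = 0.0035) and PIP2-4 of 0.99 ± 0.25 (adjusted p = 0.0126). One probe set of PIP2-1 had -0.99 ± 0.13 (adjusted p = 0.000677). Each lay just inside 2-fold, and leaving out KM replicate 1 took all 3 past it (1.08 for NIP2-1, 1.24 for PIP2-4 and -1.03 for PIP2-1), so that the count was 3 in place of 0. Leaving out KR replicate 3 called NIP2-1 (1.02) and PIP2-4 (1.03), and leaving out KR replicate 2 or KM replicate 3 called PIP2-1 (-1.001 and -1.02).

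The TIP probe sets all had positive changes in KR against KM, 11 of 11, with a median of 0.40, in a comparison where 72.9% of all probe sets had a positive change. With quantile normalization or equal array medians 9 of 11 were positive, and those that turned, TIP3-2 and a probe set of TIP4-1, were near background. The same TIP4-1 probe set turned without KM replicate 3 (-0.03) and TIP4-2 without KR replicate 3 (-0.01). TIP1-1 had 0.50 ± 0.09 (adjusted p = 0.00274) and 0.64 ± 0.20 (adjusted p = 0.0268), and TIP2-2 had 0.49 ± 0.11 (adjusted p = 0.00752). TIP2-1 had 0.64 ± 0.30 (adjusted p = 0.108) and, in the s probe set, 0.75 ± 0.23 (adjusted p = 0.0281). TIP1-2, lower in KM, had 0.40 ± 0.33 (adjusted p = 0.3545). Of the PIP genes lower in KM, PIP2-4 passed the p threshold, as given above. The others had 0.16 ± 0.19 in PIP1-3 and -0.09 ± 0.26 in PIP2-5, neither past it (adjusted p = 0.519 and 0.805).

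Set against seedlings that kept potassium throughout, the resupplied seedlings had 6 aquaporin genes lower and none higher. In KR against KP, 7 of the 31 probe sets fell and 24 were not called, against 3.2% called either way and 2.06% called lower over all probe sets, and 8.12% called among those with a group mean of at least 4. TIP2-1 fell by 1.99 (-1.99 ± 0.30, adjusted p = 0.0012) and, in the s probe set, by 1.26 (-1.26 ± 0.23, adjusted p = 0.00306). PIP2-5 had -1.59 ± 0.26 (adjusted p = 0.00189) and PIP1-3 had -1.19 ± 0.19 (adjusted p = 0.00151).

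TIP1-2 had -1.33 ± 0.33 (adjusted p = 0.0125), a call that the methods' t-test did not make (adjusted p = 0.0687). PIP2-4 had -1.06 ± 0.25 (adjusted p = 0.00954), and without KP replicate 3 it was -0.86 and no longer called. The seventh probe set was NIP2-2, described with the silicon channels below. Side by side, the changes of PIP2-4 against KP were -1.06 in KR and -2.04 in KM, and those of PIP2-5 were -1.59 in KR and -1.50 in KM. The median of the 31 in KR against KP was -0.01, against 0.05 over all probe sets, with 15 positive and 16 negative changes, where 75.0% of all probe sets had a positive change. The marker lists, 1 probe set per gene, had calls here too. Of 7 clock genes 2 were called in KR against KM, PRR95 (2.84 ± 0.05) and PCL1 (-1.04 ± 0.09). In KR against KP 3 were, CCA1 (-4.29 ± 0.18), PRR95 (1.75 ± 0.05) and PRR37 (1.15 ± 0.17). Of 5 green genes 0 and 1 (RCA, -1.04 ± 0.11) were called, and of 8 root genes 0 in each. Over all probe sets 3.81% and 3.2% were called, in the same order. Of all 13 green probe sets 1 was called in each. In KR against KM it was the s probe set of CAB2R, called lower in KM against KP and higher here (1.95 ± 0.08, adjusted p = 2.98e-06). The part of these in the KR values was not tested.

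**Figure D3:**
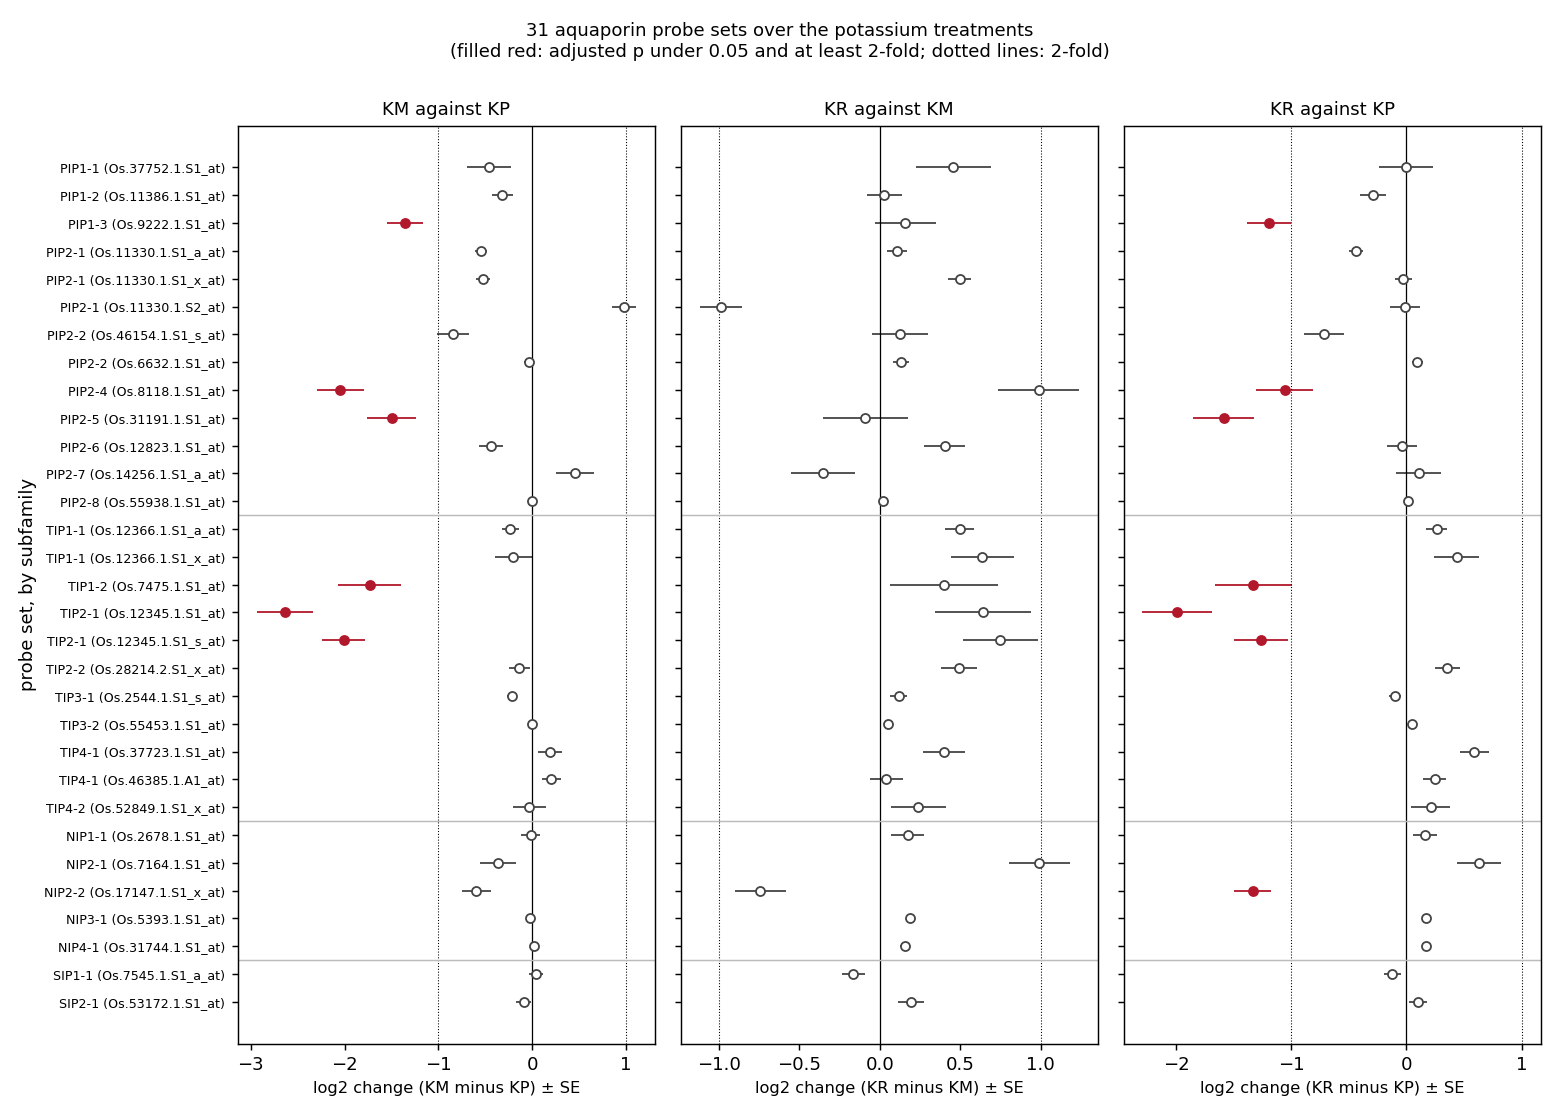
Log2 change with its standard error (horizontal axis, a scale of its own in each panel) of the 31 aquaporin probe sets for KM against KP (left), KR against KM (middle) and KR against KP (right), with rows grouped as PIP, TIP, NIP and SIP. Filled points passed the call, 6 on the left, 0 in the middle and 7 on the right, all of them to the left of 0.

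The silicon channels had changes of opposite sign in KR seedlings. NIP2-1, known as Lsi1, takes silicic acid up into rice roots. It had 12.19, 12.19 and 12.11 in KR seedlings, 11.34, 11.06 and 11.11 in KM seedlings, 11.36, 11.22 and 12.02 in KP seedlings and 8.50, 8.67 and 8.32 in 0h seedlings. The KR arrays lay above all others, narrowly above KP replicate 3. Its changes were 0.63 ± 0.19 in KR against KP (adjusted p = 0.0253) and -0.36 ± 0.19 in KM against KP (adjusted p = 0.382), which was -0.12 without KP replicate 3.

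NIP2-2, known as Lsi6 and read by an x probe set, moves silicic acid out of the xylem in rice shoots. It had 9.21, 9.30 and 9.22 in KR seedlings, 10.01, 10.04 and 9.91 in KM seedlings, 10.41, 10.39 and 10.93 in KP seedlings and 9.81, 10.15 and 9.66 in 0h seedlings. The KR arrays were the lowest of the 12, with no overlap with any group. It was called lower in KR against KP (-1.34 ± 0.16, adjusted p = 0.000435), while KR against KM gave -0.74 ± 0.16 (adjusted p = 0.00573), under 2-fold. Lsi2, the exporter that works beside NIP2-1 in roots, had 0.74 ± 0.35 in KR against KM (adjusted p = 0.113).

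The 3 probe sets of PIP2-1 did not give the same direction. In KM against KP the a and x probe sets had -0.54 ± 0.06 (adjusted p = 0.00083) and -0.52 ± 0.07 (adjusted p = 0.00222). The third, which carries neither letter, had 8.42, 8.46 and 8.43 in KR seedlings, 9.35, 9.56 and 9.37 in KM seedlings, 8.54, 8.37 and 8.45 in KP seedlings and 8.79, 8.87 and 9.35 in 0h seedlings. All 3 KM arrays lay above the KR and KP arrays, and the change against KP was 0.98 ± 0.13 (adjusted p = 0.00183). It passed 2-fold without KM replicate 1 (1.01), without KM replicate 3 (1.00) and without KP replicate 1 (1.02). No direction is given for the gene.

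**Figure D4:**
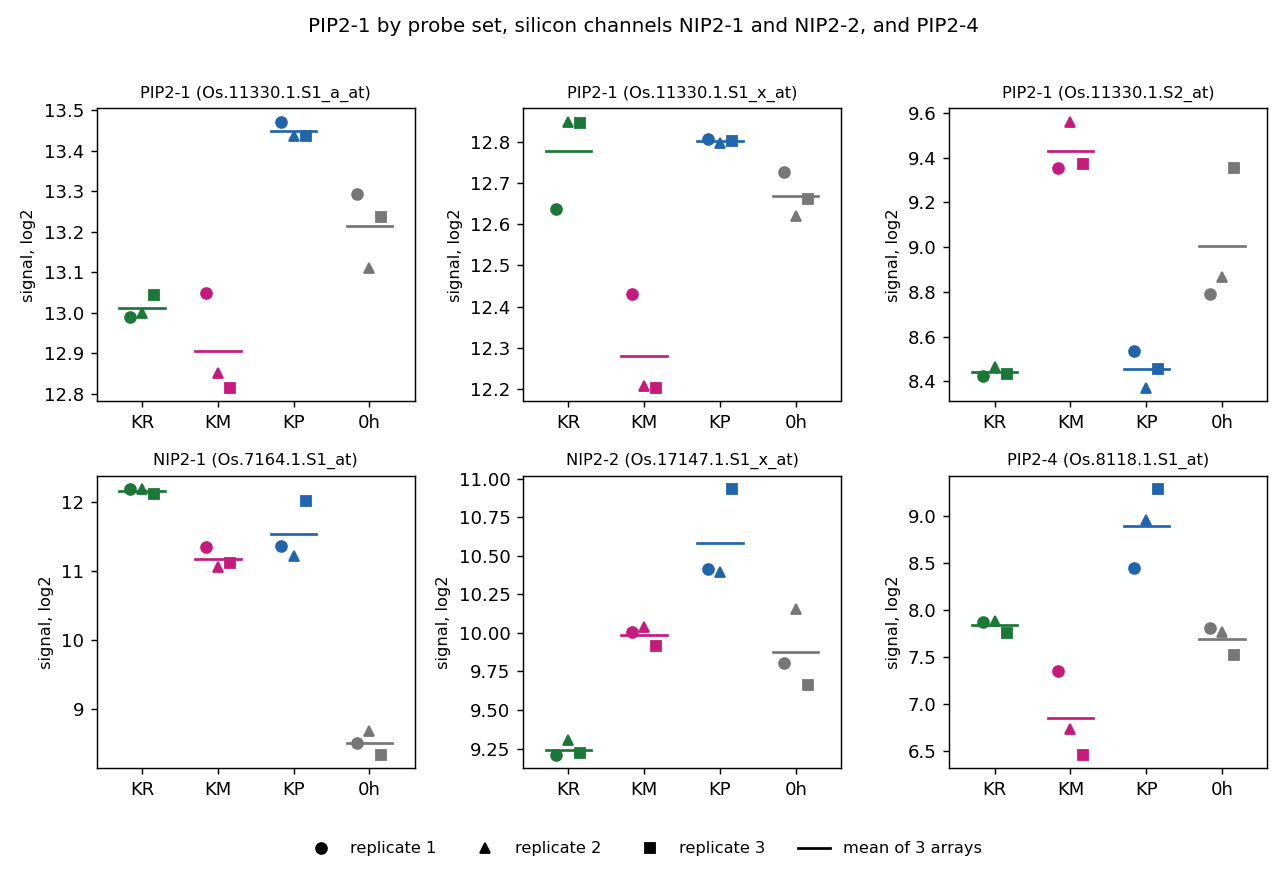
Log2 signal (vertical axis, a scale of its own in each panel) of the 3 PIP2-1 probe sets, of NIP2-1, NIP2-2 and, for comparison, PIP2-4, in KR, KM, KP and 0h seedlings, with points for arrays and lines for means of 3. The KM arrays are the highest of the KR, KM and KP arrays in the third PIP2-1 probe set, at 9.35 to 9.56, and the KR arrays are the lowest of all in NIP2-2, at 9.21 to 9.30.

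Over the 5 days from transfer, 4 aquaporin genes rose without potassium and 11 rose with it, and 1 fell in both. Among them TIP1-1 was called only in its x probe set. With 1 probe set per gene, 3 genes rose without potassium and 10 with it. In KM against 0h, 4 of the 31 probe sets rose, 1 fell and 26 were not called, against 6.19% called higher and 12.1% called either way over all probe sets, and 30.5% called either way among those with a group mean of at least 4. The median change was 0.11. In KP against 0h, 12 probe sets rose, 1 fell and 18 were not called, against 5.87% called higher and 11.6% called either way over all probe sets, and 29.2% called either way among those with a group mean of at least 4. The median was 0.38, against -0.01 over all probe sets in each comparison. The difference between these 2 changes of a probe set is its KM against KP change, given above.

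NIP2-1 rose in both, by 2.67 ± 0.19 in KM (6.37-fold, adjusted p = 5.3e-06) and by 3.03 ± 0.19 in KP (8.19-fold, adjusted p = 2.84e-06), each against 0h. The root gene Lsi2 rose as well, by 2.86 in KM and by 3.83 in KP. A negative change was seen in 5 of the 8 root marker genes in each comparison. Over all probe sets 70.5% were negative in KM and 69.3% in KP, each against 0h. PIP2-7, a plasma membrane channel, had 12.22, 12.28 and 12.18 in KR seedlings, 12.73, 12.55 and 12.46 in KM seedlings, 12.14, 12.23 and 11.99 in KP seedlings and 10.13, 10.11 and 9.29 in 0h seedlings. All 9 later arrays were above the 0h arrays, and it rose by 2.73 ± 0.20 in KM and by 2.28 ± 0.20 in KP (adjusted p = 6.34e-06 and 2.15e-05).

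TIP4-1, a vacuolar channel, had 12.71, 12.71 and 12.76 in KR seedlings, 12.17, 12.50 and 12.31 in KM seedlings, 12.01, 12.07 and 12.33 in KP seedlings and 10.02, 9.91 and 10.35 in 0h seedlings. The 0h arrays were again the lowest of the 12. It rose by 2.23 ± 0.13 in KM and by 2.04 ± 0.13 in KP (adjusted p = 1.64e-06 and 3.15e-06).

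TIP1-1, in its x probe set, had 13.03, 12.74 and 12.76 in KR seedlings, 12.10, 12.34 and 12.18 in KM seedlings, 12.15, 12.37 and 12.70 in KP seedlings and 11.36, 11.42 and 10.76 in 0h seedlings. The 0h arrays lay below the others. It rose by 1.03 ± 0.20 in KM and by 1.23 ± 0.20 in KP (adjusted p = 0.0029 and 0.000985), and the KM call was lost without KM replicate 2 (0.96) or without 0h replicate 3 (0.81). The a probe set of the same gene had 0.03 ± 0.09 in KM and 0.26 ± 0.09 in KP and was not called.

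In the 5 genes lower in KM than in KP, the change from 0h was not called in KM and was called in KP. These genes were chosen by KM against KP, which uses the same KM and KP arrays. The pattern follows in part from that choice and is no separate evidence. TIP2-1 had 0.57 ± 0.30 in KM against 0h (adjusted p = 0.251) and rose by 3.21 ± 0.30 in KP against 0h (9.23-fold, adjusted p = 3.32e-05). Its s probe set had -0.70 ± 0.23 in KM and rose by 1.31 ± 0.23 in KP (adjusted p = 0.0546 and 0.00192). TIP1-2 had 0.94 ± 0.33 in KM and rose by 2.67 ± 0.33 in KP (adjusted p = 0.0723 and 0.000218). PIP2-5 had 0.55 ± 0.26 in KM and rose by 2.04 ± 0.26 in KP (adjusted p = 0.199 and 0.000259).

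PIP2-4 had -0.85 ± 0.25 in KM against 0h (adjusted p = 0.0315), a change called lower without KM replicate 1 (-1.10), and it rose by 1.198 ± 0.25 in KP (adjusted p = 0.00517). PIP1-3 had -0.22 ± 0.19 in KM (adjusted p = 0.591) and rose by 1.14 ± 0.19 in KP (adjusted p = 0.00134), which was 0.97 and not called without KP replicate 3. KM and 0h arrays overlapped in PIP1-3 and in the first TIP2-1 probe set. They did not overlap in PIP2-4 and the s probe set of TIP2-1, where KM was lower, or in PIP2-5 and TIP1-2, where KM was higher. None of these changes was called, and KM and 0h arrays did not overlap in 19359 of all 57258 probe sets.

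PIP1-1 and PIP2-2 rose in KP against 0h as well. PIP1-1 had 12.55, 12.62 and 12.38 in KR seedlings, 12.08, 12.14 and 11.96 in KM seedlings, 12.36, 12.55 and 12.66 in KP seedlings and 11.51, 11.53 and 10.54 in 0h seedlings. The 0h arrays lay below the others, with 0h replicate 3 farthest down, and the rise in KP was 1.33 ± 0.23 (adjusted p = 0.00186). In KM against 0h PIP1-1 had 0.86 ± 0.23 (adjusted p = 0.0208), and without 0h replicate 1 or 0h replicate 2 that comparison was called (1.02 and 1.03).

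PIP2-2, in its s probe set, had 11.52, 11.62 and 11.28 in KR seedlings, 11.24, 11.40 and 11.39 in KM seedlings, 12.02, 12.12 and 12.43 in KP seedlings and 11.35, 11.26 and 10.71 in 0h seedlings. The KP arrays were above all others. Its rise in KP against 0h was 1.09 ± 0.17 (adjusted p = 0.00105), and it was not called without KP replicate 3 (0.97) or without 0h replicate 3 (0.89). By the methods' t-test the KP against 0h calls of PIP1-1, PIP2-2, PIP2-4 and the x probe set of TIP1-1 were not made (adjusted p from 0.052 to 0.0791).

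NIP1-1, of the solute channel class, was the one aquaporin gene called lower than at 0h, in both comparisons. It had 8.38, 8.22 and 8.02 in KR seedlings, 8.09, 7.91 and 8.09 in KM seedlings, 8.12, 8.05 and 7.97 in KP seedlings and 9.28, 9.08 and 8.999 in 0h seedlings. The 0h arrays were above all later arrays, which overlapped one another. It fell by 1.09 in KM (-1.09 ± 0.10, adjusted p = 3.13e-05) and by 1.08 in KP (-1.08 ± 0.10, adjusted p = 3.6e-05), each against 0h, and without 0h replicate 1 the KP change was -0.997, just inside 2-fold. SIP1-1 had 0.78 ± 0.07 in KM and 0.74 ± 0.07 in KP (adjusted p = 2.86e-05 and 4.35e-05), with all 0h arrays below the later ones, and did not reach 2-fold.

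**Figure D5:**
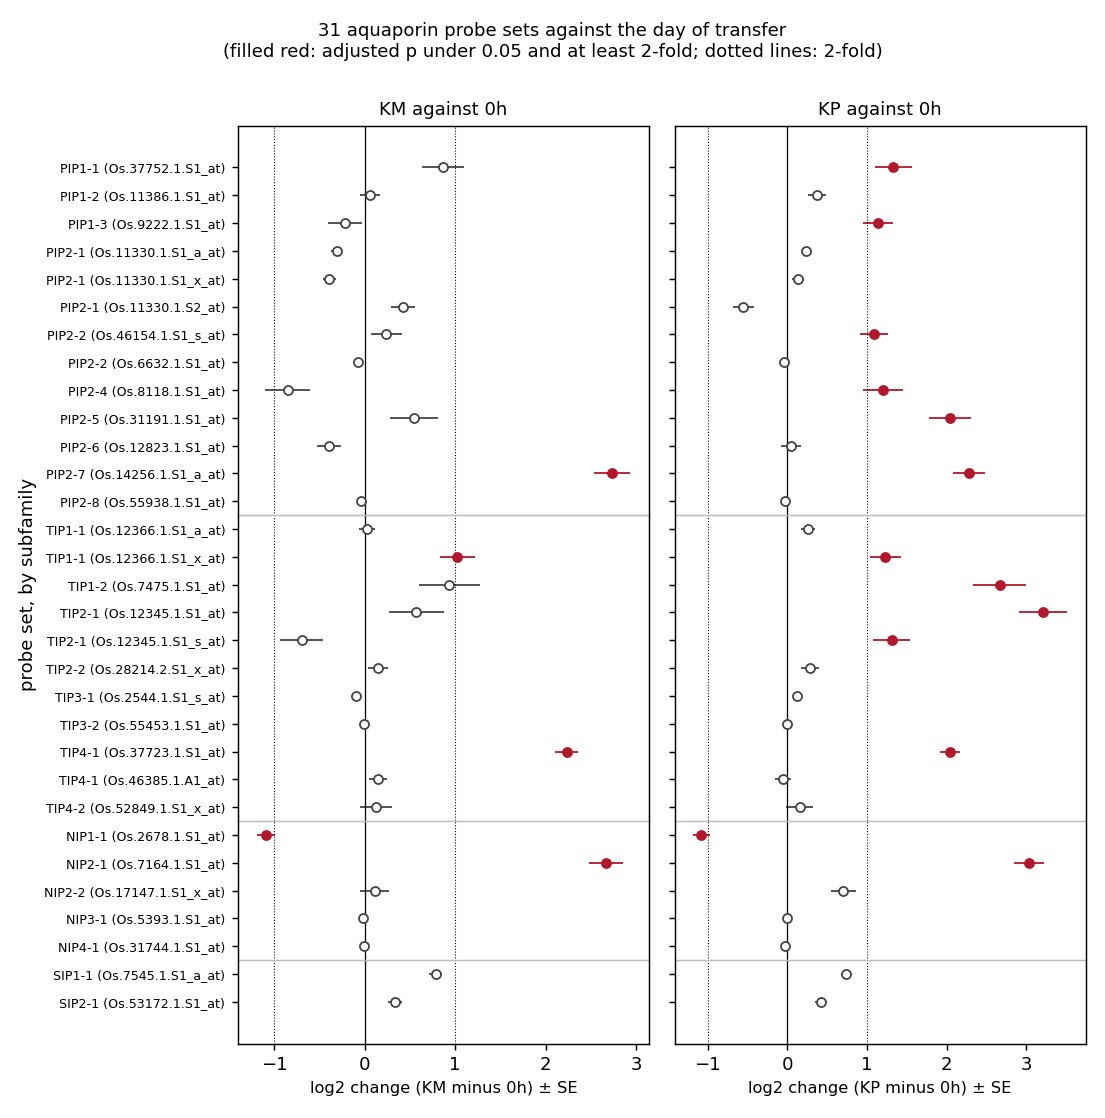
Log2 change with its standard error (horizontal axis, a scale of its own in each panel) of the 31 aquaporin probe sets in KM against 0h (left) and KP against 0h (right), with rows grouped as PIP, TIP, NIP and SIP. Filled points passed the call, 5 in KM and 13 in KP, and NIP1-1 is the only filled point to the left of 0 in either panel.

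Clock, green and root markers were compared with 0h too. CCA1 fell in KM against 0h (-5.24 ± 0.18), and 4 of 7 clock genes rose in each comparison, among them GI, an evening gene, by 4.97 ± 0.16 in KM and by 4.23 ± 0.16 in KP. Over all probe sets 6.19% were called higher in KM and 5.87% in KP, each against 0h. Of the 5 green genes, 1 probe set each, 3 had positive and 2 negative changes in KM against 0h, with GLO1 called higher (mean 11.08 in KM and 9.88 in 0h seedlings, adjusted p = 3.27e-05) and CAB2R at -0.63 ± 0.03 (adjusted p = 7.57e-07). In KP against 0h all 5 changes were positive and RCA was called. Of all 13 green probe sets, 4 were called higher in each comparison, rbcS probe sets among them. The RCA probe sets did not share a direction in KM against 0h, where they ran from -0.95 to 1.73. Of the 8 root genes, Lsi2 and AMT1-2, an ammonium importer, rose in both comparisons. CASP1 (-1.50 ± 0.22, in 1 of its 3 probe sets) and SCR1, a factor of root patterning (-1.05 ± 0.16), fell in KM against 0h. In KP against 0h they had -0.39 ± 0.22 and -0.93 ± 0.16 (adjusted p = 0.314 and 0.00146), neither at 2-fold. SHR1 had -0.69 ± 0.17 in KM and -0.44 ± 0.17 in KP (adjusted p = 0.0131 and 0.103), each against 0h and not called. The part of these in the aquaporin values was not tested.

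Transport of ions across the tonoplast and the plasma membrane sets the gradient that water follows, and 6 such transport genes could be matched by name, the vacuolar potassium channels TPKA and TPKB and the cation exchangers CAX1a, CAX1b, CAX2 and CAX3. No proton pump and no transporter of the NHX, KEA or CLC families was matched, so the 6 do not stand for this transport as a whole. CAX1b was near background, at 2.42 to 3.21. None of the 6 was called in KM against KP, and none in KR against either KM or KP. By limma their unadjusted p was under 0.05 in 3 genes in KM against KP, in 2 in KR against KM and in 6 in KR against KP, beside 19.3%, 54.2% and 52.7% of all probe sets in the same order. TPKB had 5.19, 5.15 and 4.80 in KR seedlings, 5.01, 5.33 and 5.34 in KM seedlings, 5.62, 5.98 and 5.92 in KP seedlings and 5.69, 6.23 and 5.83 in 0h seedlings. The KM arrays lay below the KP arrays (-0.61 ± 0.17, adjusted p = 0.0568). CAX1a was called higher against 0h, by 1.35 in KM and by 1.38 in KP.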

How the data were processed

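Seedlings of IR64 were measured on 12 arrays, placed in groups by title and source name. The deposited intensity values are GCRMA signals on a linear scale that the authors made in ArrayAssist 5.0 from GCOS 1.2.1 files, a step that draws signals near background together and so limits changes there. Signals were converted to log2 (floor 1, which altered 0 values), and no further normalization was applied. Of 57381 probe sets 123 controls were left out. limma 3.58.1 in R 4.3.3 fitted 1 mean per group over all 12 arrays, and p values were adjusted by Benjamini-Hochberg over 57258 probe sets per comparison. The thresholds, 2-fold and adjusted p under 0.05, are the study's. The script was tested on simulated data. Array number limits the precision (3 per group).

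In the array annotation 22436 probe sets have 1 gene and 95 have several, which were left out of the rule. All members called in a comparison are named, and of the others at most 3 per subfamily with the highest mean, plus those whose probe sets disagree or lie near a threshold, chosen after their values were seen. Members and lists were chosen with earlier results of these data known. Gene names and neighbours come from the RefSeq table. Alternatives were the methods' t-test, 2-group fits, 2 scalings, a filter, a floor, other fold thresholds, a replicate block, 1 probe set per gene and each array left out.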

Additional observations from a re-analysis of the deposited data

How the results depend on the processing

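The counts of called aquaporin probe sets were 6 for KM against KP, 0 for KR against KM, 7 for KR against KP, 13 for KP against 0h and 5 for KM against 0h. With no fold threshold they were 12, 15, 16, 19 and 13, in that order, and at 1.5-fold they were 9, 6, 10, 15 and 8. At 1.5-fold, 1 of the 9 in KM against KP was higher, the third PIP2-1 probe set. In KR against KP 2 of the 10 were higher, NIP2-1 and TIP4-1. The methods' t-test called 0 in KM against KP. Arrays shifted to equal medians gave 1 in KR against KM, the third PIP2-1 probe set (-1.09). Leaving out each array in turn gave 6 to 7 in KM against KP, 0 to 3 in KR against KM, again 6 to 7 when KR was set against KP, 11 to 13 in KP against 0h and 4 to 6 in KM against 0h. No direction of a called probe set reversed under any alternative run. Quantile normalization ended the TIP1-1 call in KM against 0h (0.95). Why these calls moved was not tested. Replicate numbers were not taken to pair the arrays. Across groups, the deviations of same-numbered arrays correlated between -0.11 and 0.16 over 18 pairs, and those of differently numbered arrays between -0.20 and 0.19 over 36. Taken over all probe sets, many of them near background, these values cannot tell whether same-numbered arrays were grown or processed together. With the number as a replicate block the counts were again 6, 0, 7, 13 and 5. With 3 arrays per group, changes near 2-fold and members near background are limited by array number and by signal over background.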

Other observations

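A probe set outside the naming rule carries no gene name in the array annotation and stands for LOC_Os10g36924, which the study's supplementary categories list as an aquaporin. It was chosen by the study on these arrays and looked at here for that reason, so it is no independent evidence. It had 4.52, 4.44 and 4.46 in KR seedlings, 4.48, 4.37 and 4.46 in KM seedlings, 5.60, 5.72 and 5.62 in KP seedlings and 3.16, 3.96 and 3.45 in 0h seedlings. The KP arrays were above all others, and the KR and KM arrays overlapped. Its limma changes were -1.21 ± 0.16 in KM against KP (adjusted p = 0.00181), 0.03 ± 0.16 in KR against KM (adjusted p = 0.882) and 2.13 ± 0.16 in KP against 0h (adjusted p = 9.12e-06).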
